A study of Mus musculus with 30 samples.

Results

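The third day of retinoic acid treatment was followed in KH2 mouse embryonic stem cells by setting 3 arrays at 72 h (A, B and C) against 3 arrays at 48 h (A, B and C). These 6 arrays were chosen by their labelled time, out of 30 arrays in all. Cells of both times were of 1 line, KH2, grown on a layer of feeder fibroblasts, and both are labelled as treated with retinoic acid, so that neither is an untreated control. The protocol gives retinoic acid at 0.3 uM, in a passage written for shorter treatments. It then has the cells dissociated, replated for 30 minutes on gelatin and lysed, and for each Affymetrix mouse array 200 ng of RNA were biotinylated. The labels describe the lysed cells in 2 ways, as those that adhered or as those in the medium drawn off. They do not say that arrays A to C came from separate cultures, so a p-value here sets the change against the spread of 3 arrays that may be technical repeats.

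Retinoic acid is a vitamin A derivative that binds nuclear receptors and drives pluripotent cells towards neural and endodermal fates. In the neural lineage, dividing progenitors held by the SoxB1 factors and Notch signalling start to express proneural basic helix-loop-helix factors, leave the cell cycle and become neurons, which build neurofilaments, synaptic vesicles and secretory granules. Radial glia and astrocytes usually arise later from the same progenitors, under factors such as the nuclear factor I family.

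All values are log2 intensities as deposited, with 1 probe set per gene for 18193 genes. A change is the mean of 72 h minus the mean of 48 h, given with its standard error (SE) from a limma model of all 30 arrays, and a gene was called at an adjusted p under 0.05 over all genes. The 6 arrays had medians between 6.36 and 6.38 and lower quartiles between 4.76 and 4.83, and correlated with each other at r of 0.992 to 0.9975. Where the lower of the 2 means lay under 4.76, the change is written as "at least", and where both did, no change is given. The spread between arrays (root mean square SD over genes) was 0.143 at 72 h and 0.162 at 48 h, against 0.109 to 0.124 in the groups of 8 h to 24 h, so the fit to all arrays works with a smaller variance than that of the late arrays. Counts from a fit to the arrays from 36 h on are therefore given beside it. The biotin control BioC ranged from 8.06 to 10.08 at 72 h and from 9.80 to 10.89 at 48 h. The 28 measured genes of an embryonic fibroblast list, which stand for the feeder layer, had a mean level of 10.36, 9.68 and 10.58 in 72 h arrays A, B and C, against 10.38, 9.84 and 10.95 in 48 h arrays A, B and C. That level differed more between arrays of 1 time than between the times. In both groups array B was the lowest and array C the highest.

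Between 48 h and 72 h 2856 genes were called, 15.7% of those tested: 1772 were higher (9.74%) and 1084 lower (5.96%). The larger changes were mostly rises, with 157 genes called higher by at least 1 log2 (0.863%) and 17 called lower by as much (0.0934%). The arrays of the 2 times did not overlap for 2677 of the called genes (14.7% of those tested). The fit to the late arrays alone called 1025 genes higher (5.63%) and 412 lower (2.26%), and 1423 of its 1437 calls were called in the same direction in the fit to all arrays. A fit to the 6 arrays alone called 999 higher (5.49%) and 354 lower (1.95%), and with the replicate letter as a block it called 1430 genes. The share of calls that were rises was 62.0%, and 52.4% after quantile normalization, with 1528 higher and 1386 lower. The median change of all genes was -0.02. Counts of list members given below stand against these shares of all genes.

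Among the genes that rose most were genes of neurons and of the cell surface and matrix. Epha3, an ephrin receptor of axon guidance, had 9.35, 9.07 and 8.81 at 72 h, against 5.42, 5.94 and 5.72 at 48 h, a change of 3.38 (SE 0.21, adjusted p = 1.4e-10). All its 72 h arrays lay above all its 48 h arrays, which the naming rule required of every gene in this paragraph and the next. Tmem255a had 7.72, 7.23 and 7.42 at 72 h, against 3.59, 4.02 and 3.79 at 48 h, a rise of at least 3.66. The host transcript of the neuronal microRNA miR-124, Mir124-2hg, had 6.81, 7.12 and 6.96 at 72 h, against 4.35, 4.34 and 3.80 at 48 h, a rise of at least 2.80. At 48 h both lay below the lower quartile of their arrays. Uncx, a homeobox factor, rose by at least 2.76, Fat4, a giant cadherin, by 2.45 (SE 0.29), Prdm8, a zinc finger factor of neural cells, by 2.42 (SE 0.23) and Tshz2, a zinc finger factor, by 2.36 (SE 0.17). Pgm5 rose by 2.32, Adamts20, a secreted metalloprotease, by 2.26, Egfl6, a matrix protein, by 2.23, Cadps, which primes dense-core vesicles for release, by 2.21, and the long noncoding RNA Miat by 2.19. The other 3 of the 15 largest rises, Nhlh2, Neurod4 and Nefm, are described with their lists.

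**Figure D1:**
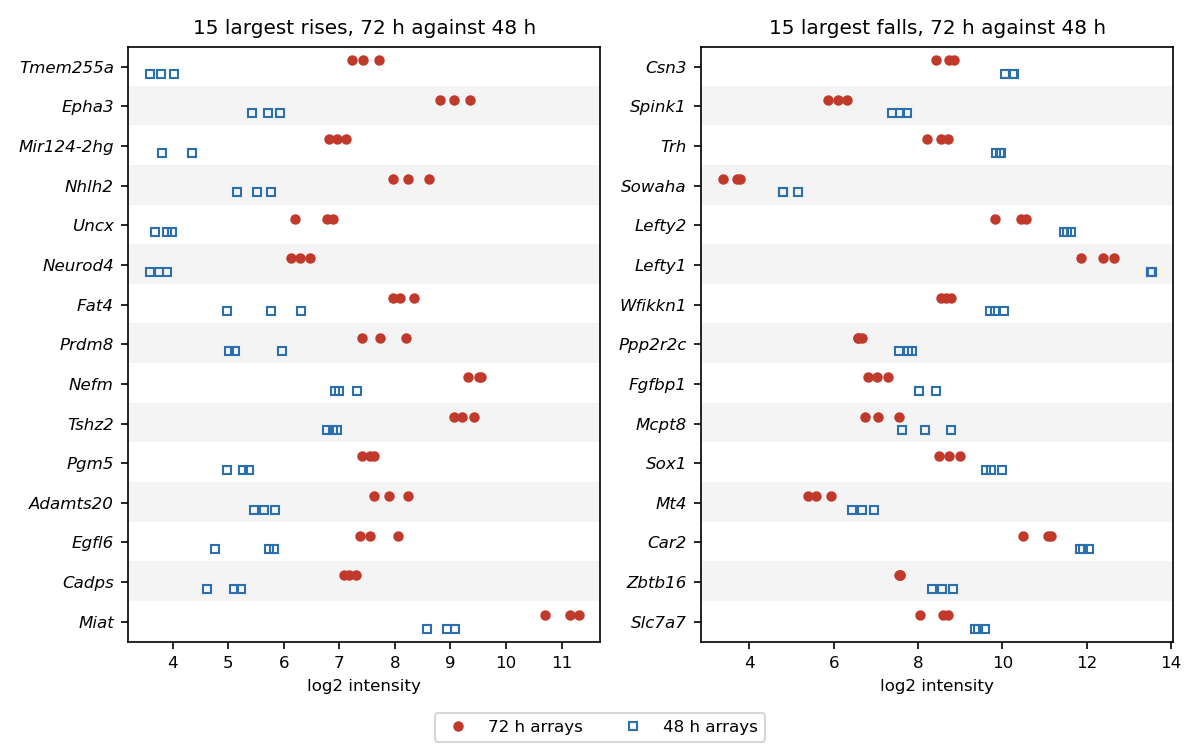
Log2 intensity (x axis) of the 15 genes with the largest called rise (left) and the 15 with the largest called fall (right) in each array, with 72 h as filled circles above 48 h as open squares. In every row the 3 arrays of 72 h lie on 1 side of the 3 arrays of 48 h, since the genes were named under that condition.

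The falls were smaller and fewer. Csn3, kappa-casein, had 8.43, 8.73 and 8.86 at 72 h, against 10.27, 10.25 and 10.06 at 48 h, a change of -1.52 (SE 0.12, adjusted p = 6e-09). Trh, the precursor of thyrotropin-releasing hormone, had 8.22, 8.55 and 8.72 at 72 h, against 9.84, 9.97 and 9.95 at 48 h, a change of -1.42 (SE 0.10). At 72 h both still lay above the medians of their arrays. The Nodal inhibitors Lefty2 and Lefty1 changed by -1.26 (SE 0.22) and -1.23 (SE 0.17). Spink1, a trypsin inhibitor, changed by -1.47, Wfikkn1, a protease inhibitor domain protein, by -1.20, Ppp2r2c, a phosphatase regulatory subunit, by -1.11 and Fgfbp1, a carrier of fibroblast growth factors, by -1.11. Sowaha fell by at least 1.30 on the log2 scale. Its mean was 3.21 at 24 h (arrays D to F), 3.84 at 36 h and 4.92 at 48 h. Car2, a carbonic anhydrase, changed by -1.03 and the amino acid transporter Slc7a7 by -1.01. With 12 h and 24 h each taken as 1 group, Spink1 (adjusted p = 0.15), Fgfbp1 (adjusted p = 0.11) and Car2 (adjusted p = 0.066) were not called. Mcpt8, a mast cell protease gene, with -1.08 (SE 0.26), was not called in the fit to the 6 arrays alone, and Mt4, a metallothionein, with -1.04 (SE 0.23), had an adjusted p of 0.056 among the late arrays. The mean of Mcpt8 was 6.25 at 24 h (arrays D to F), 6.19 at 36 h, 8.19 at 48 h and 7.11 at 72 h. Sox1 and Zbtb16 complete the 15 and are described with the progenitor genes.

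Many neuronal regulators of transcription and RNA were higher. Of 29 measured RNA-binding proteins and transcription factors of neurons, 16 were higher and 0 lower, with a median change of 0.33. In the fit to the late arrays 14 were higher and 0 lower. Nhlh2, a helix-loop-helix factor of young neurons, had 8.62, 7.97 and 8.24 at 72 h, against 5.16, 5.52 and 5.77 at 48 h, a change of 2.79 (SE 0.24, adjusted p = 2.1e-08). Insm1, a zinc finger factor of neurogenic and endocrine progenitors, had 8.77, 8.05 and 8.39 at 72 h, against 6.46, 6.34 and 6.39 at 48 h, a change of 2.01 (SE 0.15). The 72 h arrays lay above all 48 h arrays for both genes, which the naming rule required of Nhlh2. The Ebf factors rose by 1.76 (Ebf2, SE 0.21) and 1.48 (Ebf3, SE 0.16), while Ebf1 had a change of -0.33 (SE 0.20) that was not called. Elavl3, the RNA-binding protein HuC, had 8.25, 8.09 and 8.27 at 72 h, against 6.94, 6.80 and 6.97 at 48 h, a change of 1.30 (SE 0.13), and Elavl4, or HuD, rose by 1.06 (SE 0.13), with 1.81 and 2.22 in its other probe sets. Sox11 rose by 1.29, the repressors Scrt1 and Scrt2 by 1.21 and 1.07, Nova2 by 0.90 and Nova1, its partner in neuronal splicing, by 0.60. Rbfox3, the antigen NeuN of mature neurons, had 7.17, 7.10 and 6.97 at 72 h, against 6.43, 6.34 and 6.27 at 48 h, a change of 0.73 (SE 0.07). Its mean at 24 h (arrays D to F) was 6.91. Sox4, at a mean of 13.75 at 72 h and 13.67 at 48 h, was not called.

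The proneural factors showed the same direction. Of 18 measured proneural and Id factors, 11 were higher and 0 lower, with a median change of 0.36. The late arrays alone gave 9 higher. Neurod4 had 6.47, 6.13 and 6.29 at 72 h, against 3.75, 3.60 and 3.89 at 48 h, a rise of at least 2.55. Neurod1 rose by 1.47 (SE 0.16), Neurog2 by 1.47 (SE 0.17), Ptf1a, a factor of inhibitory neuron progenitors, by 1.23 (SE 0.20) and Neurog1 by 0.62 (SE 0.12). The mean of Neurod1 was 7.06 at 24 h (arrays D to F), 6.00 at 48 h and 7.47 at 72 h. The size for Neurog1 depended on the probe set: another one averaged 8.96 at 72 h and 6.31 at 48 h, a change of 2.64 (SE 0.25, adjusted p = 7.4e-08). Of the Id proteins, which bind and block the partners of the proneural factors, 3 were higher, Id3 by 0.61 (SE 0.09), Id1 by 0.52 (SE 0.10) and Id4 by 0.49 (SE 0.13), although Id4 was called neither among the late arrays (adjusted p = 0.089) nor in the 6 arrays with the replicate block (adjusted p = 0.057). Id2 was not called, with 0.12 (SE 0.11), although another of its probe sets was, with 0.38 (adjusted p = 0.022). Those partners rose less, Tcf12 by 0.37 and Tcf4 by 0.35. Neurod2 and Atoh1 were not called, with changes of -0.11 (SE 0.08) and 0.13 (SE 0.14), and Neurod6 was dim at both times.

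**Figure D2:**
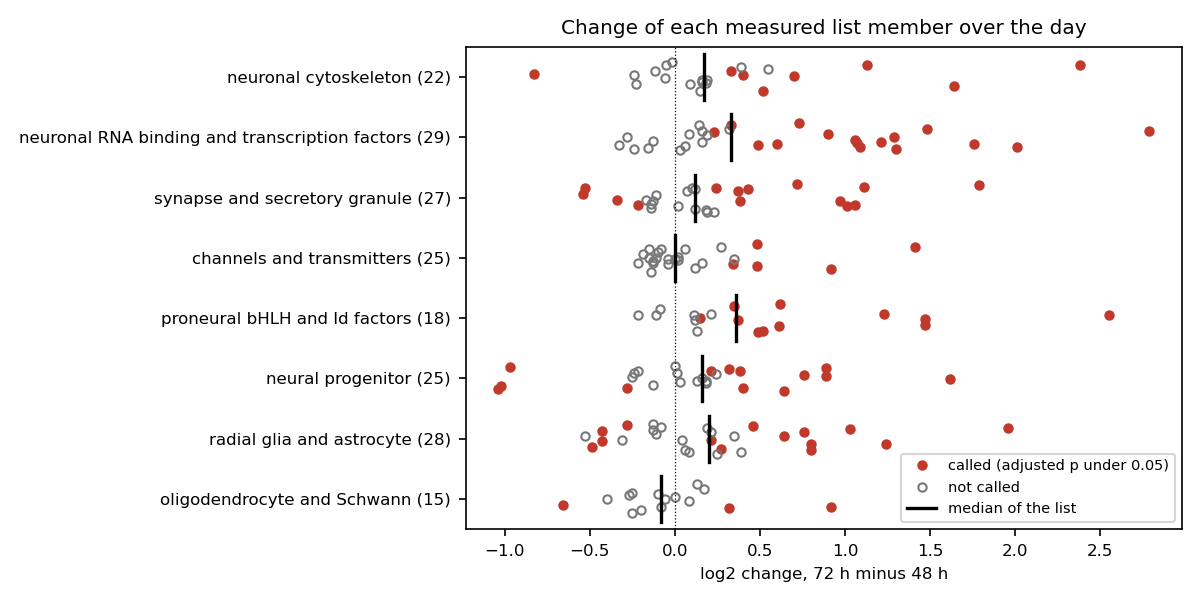
Log2 change from 48 h to 72 h (x axis) of every measured member of 8 gene lists, with the number measured in brackets. Filled points were called, open points were not, and the bar is the list's median, which lies at 0.36 for the proneural and Id factors, at 0.33 for the neuronal RNA-binding and transcription factors and at -0.08 for the oligodendrocyte and Schwann list.

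Promoters of 3 of these risers are shown because E-boxes, the sites that proneural factors bind, can be read in them. They are the 3 largest called rises of the 4 neuronal lists (cytoskeleton, RNA-binding and transcription factors, synapse, and proneural and Id factors) that the RefSeq promoter table holds. Each runs from 250 bases before to 50 bases after the start of the gene, on the strand of the gene, and capitals mark the letters CAGCTG and CAGATG, searched on both strands (CAGCTG reads the same on both, and CAGATG reads CATCTG on the other). The build is GRCm38.p6, with Nhlh2 at chr3:102009895-102010194 (+ strand), the lower of the 2 starts of Neurod4 at chr10:130280089-130280388 (- strand) and Chgb at chr2:132781392-132781691 (+ strand).
Nhlh2: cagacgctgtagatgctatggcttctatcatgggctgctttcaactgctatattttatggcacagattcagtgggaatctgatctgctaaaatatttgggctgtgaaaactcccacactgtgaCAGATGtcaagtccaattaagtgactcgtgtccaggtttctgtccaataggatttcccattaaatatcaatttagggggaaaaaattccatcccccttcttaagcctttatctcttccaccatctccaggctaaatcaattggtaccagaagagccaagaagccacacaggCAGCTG
Neurod4: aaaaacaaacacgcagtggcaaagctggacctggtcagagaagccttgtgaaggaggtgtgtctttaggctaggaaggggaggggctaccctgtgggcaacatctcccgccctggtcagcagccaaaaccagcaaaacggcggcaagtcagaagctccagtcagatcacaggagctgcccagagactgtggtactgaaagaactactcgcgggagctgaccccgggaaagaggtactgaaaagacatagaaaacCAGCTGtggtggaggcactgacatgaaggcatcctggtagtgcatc
Chgb: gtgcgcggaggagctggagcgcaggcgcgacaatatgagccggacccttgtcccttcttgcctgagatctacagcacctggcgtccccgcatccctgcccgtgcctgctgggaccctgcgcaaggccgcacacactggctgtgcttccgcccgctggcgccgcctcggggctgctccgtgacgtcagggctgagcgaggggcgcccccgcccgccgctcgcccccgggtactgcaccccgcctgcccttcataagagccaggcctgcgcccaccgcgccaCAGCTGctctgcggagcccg
Each of the 3 windows held CAGCTG 1 time, and that of Nhlh2 also CAGATG. The other start of Neurod4, at chr10:130280205-130280504, held neither. Of the 21 promoters found for the 29 neuronal RNA-binding and transcription factors, 12 held CAGCTG (57.1%), against 18.8% of the 14452 promoters of genes measured here. Among the 33 promoters found for the 44 called risers of the 4 neuronal lists, 12 held it (36.4%), and 6 held CAGATG (18.2%), against 15.6% of the measured genes. With all measured members counted, called or not, CAGCTG was in 10 of 23 promoters of the synapse list (43.5%). It was in 4 of 16 of the proneural and Id list and in 1 of 13 of the neuronal cytoskeleton list (7.69%). These are counts of letters and do not show that a factor bound there. Whether risers held CAGCTG more often than the members of the same lists that were not called was not tested.

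Neuronal structural genes changed less evenly. Of 22 measured cytoskeleton genes, 7 were higher, 1 was lower and 14 were not called, with a median change of 0.17. With the late arrays alone 5 were higher and 1 was lower. Nefm, the middle neurofilament subunit, had 9.55, 9.31 and 9.51 at 72 h, against 6.99, 7.32 and 6.93 at 48 h, a change of 2.38 (SE 0.22, adjusted p = 6e-08). Nefl, the light subunit, had 10.01, 9.94 and 9.87 at 72 h, against 8.68, 8.92 and 8.84 at 48 h, a change of 1.13 (SE 0.12). The heavy subunit moved the other way: Nefh had 6.86, 7.43 and 7.35 at 72 h, against 7.98, 8.14 and 8.00 at 48 h, a change of -0.83 (SE 0.13, adjusted p = 6.9e-05). Map2, the dendritic microtubule protein, had 8.65, 8.36 and 8.58 at 72 h, against 6.94, 7.03 and 6.70 at 48 h, a change of 1.64 (SE 0.15). Stmn3 rose by 0.70 and Mllt11 by 0.52. Stmn2 and Gap43, growth cone proteins, were not called, with changes of -0.24 (SE 0.09) and -0.06 (SE 0.15).

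Doublecortin and neuronal tubulin gave answers that depended on the probe set or on the fit. The Dcx probe set kept for this report, the brightest over all arrays, had a change of -0.05 (SE 0.12) and was not called. Of its 3 other probe sets, 1 averaged 7.88 at 72 h and 5.58 at 48 h, a change of 2.30 (SE 0.20, adjusted p = 2.8e-08), another rose by at least 1.22 (adjusted p = 4.8e-05), and the third was dim at both times. Dcx, a microtubule protein of migrating neurons, is therefore reported as uncertain. Other probe sets existed for 108 of the 169 genes named under the naming rule in the text, and none was called against the direction of a kept one that was called. In 5 genes, Dcx, Slc32a1, Hes5, Sox3 and Id2, another was called where the kept one was not, and for 32 called genes no other was called. Among these 32 were the risers Rbfox3, Nova1, Nova2, Scrt1, Syp, Vamp2, Pclo, Scn3a, Gria4, Pou3f3, Nes, Sox9 and Ncan. Csn3 and Sox1, which fell, were also among them. Slc1a2, described with the astrocyte genes, also had another called where the kept one was not, and is left out of these counts. Tubb3 had 9.38, 9.32 and 9.54 at 72 h, against 8.77, 8.94 and 8.86 at 48 h. Its groups did not overlap and its change was 0.55 (SE 0.24), with an adjusted p of 0.12 in the fit to all arrays and of 0.0097 in the fit to the 6 arrays alone.

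Synaptic and secretory genes were split. Of 27 measured members 10 were higher and 4 lower, and their median change was 0.12. Among the late arrays 8 were higher and 2 lower. Without 72 h array A the counts were 7 and 2, and without 48 h array B 9 and 2. Chgb, a chromogranin of secretory granules, had 7.22, 7.07 and 7.06 at 72 h, against 5.32, 5.45 and 5.21 at 48 h, a change of 1.79 (SE 0.17). Its relative Chga had 6.87, 7.05 and 7.12 at 72 h, against 7.42, 7.63 and 7.62 at 48 h, a change of -0.54 (SE 0.12). The 2 chromogranins thus moved apart over the day, each without overlap of its groups. Scg3 rose by 1.01 (SE 0.15), Pclo, an active zone scaffold, by 0.97 (SE 0.13) and Rab3c by at least 1.06. Vamp2, a vesicle fusion protein, rose by 0.38 (SE 0.07) and Syp, synaptophysin, by 0.37 (SE 0.09). The mean of Vamp2 was 8.48 at 24 h (arrays D to F), 8.21 at 48 h and 8.59 at 72 h. Syn1, a synapsin, had a change of -0.34 (SE 0.10) that was called in the fit to all arrays and neither among the late arrays (adjusted p = 0.11) nor in the 6 arrays with the replicate block (adjusted p = 0.061). Snap25 and Scg2 were dim at both times, and Snap25 is 1 of the 10 counted as higher.

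Ion channel and transmitter genes were mostly low and mostly not called. Of 25 measured, 5 were higher, 0 were lower and 7 were dim at both times, with a median of -0.00. With genes of a mean under 5.91 left out, 4 of 9 were higher and the median was 0.27. Among the late arrays 3 were higher: Chrna3, Scn3a and Gria4. The count was also 3 without 72 h array C, 48 h array A or 48 h array B. Chrna3, a nicotinic receptor subunit of autonomic neurons, had 7.67, 7.56 and 6.87 at 72 h, against 6.07, 5.82 and 5.98 at 48 h, a change of 1.41 (SE 0.14). Scn3a, an embryonic sodium channel, rose by 0.92 (SE 0.17), and Gria4, a glutamate receptor subunit, by 0.48 (SE 0.12, adjusted p = 0.051 in the 6 arrays with the replicate block). The mean of Scn3a was 6.38 at 24 h (arrays D to F), 5.22 at 48 h and 6.14 at 72 h. The genes for glutamate, GABA and acetylcholine handling, Slc17a6, Gad2 and Chat, were not called. Slc32a1, the vesicular GABA transporter, is uncertain: the probe set kept was not called, with 0.16 (SE 0.09), while another averaged 6.17 at 72 h and 4.81 at 48 h, a change of 1.35 (SE 0.12, adjusted p = 2.8e-08). Slc17a6 and Gad2 were dim at both times.

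Factors of neuron subtypes changed in a few members, with 5 of 22 higher and 1 lower (2 lower without 48 h array B or C). Lhx1, a LIM homeobox factor of spinal and hindbrain interneurons, had 9.85, 9.65 and 9.67 at 72 h, against 7.74, 7.98 and 7.65 at 48 h, a change of 1.93 (SE 0.14, adjusted p = 1.5e-09). Isl1, a factor of motor and sensory neurons that also marks mesoderm, rose by 1.01 (SE 0.18), Lhx5 by 0.90 (SE 0.15), Pax8 by 0.65 (SE 0.08) and Lbx1 by 0.48 (SE 0.11). Phox2a, a factor of autonomic and cranial motor neurons, changed by -0.44 (SE 0.09), with an adjusted p of 0.083 in the 6 arrays with the replicate block. Mnx1 and Lhx3, motor neuron factors, were not called, with changes of -0.10 (SE 0.21) and -0.14 (SE 0.13). Axon guidance genes rose in 12 of 35 measured members and fell in 0, with Unc5c at 1.14, Sema3c at 1.04, Robo3 at 1.03, Nrp2 at 1.01 and Robo1 at 0.82.

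The progenitor genes did not fall as a group between 48 h and 72 h. Of 25 measured, 9 were higher and 4 lower, with a median change of 0.16, and among the late arrays 8 were higher and 3 lower. With 12 h and 24 h each as 1 group 3 were higher and 1 was lower. Leaving out 1 array at a time gave 6 or 7 higher and 3 to 6 lower, and the counts came closest without 48 h array C, with 7 and 6. The mean level of the progenitor list was 9.44, 9.43 and 9.33 in 48 h arrays A, B and C. It was 9.72, 9.83 and 9.87 at 60 h and 9.58, 9.46 and 9.50 at 72 h. Every 72 h array thus lay below every 60 h array, a fall within the day that was not tested. Sox1, a SoxB1 factor of neuroectoderm, had 8.99, 8.50 and 8.73 at 72 h, against 10.00, 9.72 and 9.61 at 48 h, a change of -1.04 (SE 0.18, adjusted p = 0.00029). Zbtb16, a zinc finger factor of rosette-stage progenitors, had 7.56, 7.54 and 7.58 at 72 h, against 8.84, 8.57 and 8.32 at 48 h, a change of -1.02 (SE 0.26, adjusted p = 0.0081). Lin28a, an RNA-binding protein of early progenitors and stem cells, had 10.65, 11.04 and 10.84 at 72 h, against 11.82, 11.91 and 11.72 at 48 h, a change of -0.97 (SE 0.09). No array of the 2 times overlapped for these 3 genes, which the naming rule required of Sox1 and Zbtb16. Sox1 and Zbtb16 were not called with 12 h and 24 h each as 1 group (adjusted p = 0.37 and 0.11), and the other probe set of Sox1 was not called, with -0.31 (SE 0.15, adjusted p = 0.21). Sox2 changed by -0.28 (SE 0.09) and was called neither among the late arrays (adjusted p = 0.11) nor in the 6 arrays with the replicate block (adjusted p = 0.15), and Sox3 was not called, with -0.22 (SE 0.12).

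The progenitor genes that rose included Pou3f3, a POU factor, with 8.80, 8.55 and 9.04 at 72 h, against 6.94, 7.24 and 7.34 at 48 h, a change of 1.62 (SE 0.14). Rfx4, a factor of cilia and dorsal patterning, rose by 0.89 (SE 0.16), Zic1 by 0.89 (SE 0.18), Hmga2, a chromatin protein of young stem cells, by 0.76 (SE 0.10), and Fzd3, a Wnt receptor, by 0.64 (SE 0.10). Nes, the intermediate filament nestin, had 10.09, 9.94 and 9.75 at 72 h, against 9.63, 9.53 and 9.43 at 48 h, a change of 0.40 (SE 0.08). Pax6 was just short of the threshold, with 0.24 (SE 0.09, adjusted p = 0.057).

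The genes of radial glia and astrocytes rose in 10 of 28 measured members and fell in 4, with a median of 0.20. Among the late arrays 7 were higher and 1 lower, without 72 h array A 8 were higher and 2 lower, and without 48 h array A 9 and 2. Fabp7, the brain lipid-binding protein of radial glia, had 7.44, 7.94 and 8.48 at 72 h, against 5.76, 5.90 and 6.32 at 48 h, a change of 1.96 (SE 0.19, adjusted p = 1.2e-07). Nfia, a nuclear factor I protein that starts gliogenesis, had 7.56, 7.53 and 7.72 at 72 h, against 6.37, 6.49 and 6.23 at 48 h, a change of 1.24 (SE 0.12). Every 72 h array lay above every 48 h array for both genes. Nfib rose by 0.80 (SE 0.10), Ncan, a brain proteoglycan, by 0.80 (SE 0.09), Slc1a3, the glutamate transporter GLAST, by 0.76 (SE 0.10) and Sparcl1 by at least 1.03. The mean of Ncan was 8.01 at 24 h (arrays D to F), 6.75 at 48 h and 7.54 at 72 h. Sox9 rose by 0.64 (SE 0.17) and was not called among the late arrays (adjusted p = 0.073).

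Of the markers of mature astrocytes, Gfap, Aldh1l1, S100b and Aqp4 were not called. Gfap, the astrocyte filament, averaged 6.26 ± 0.03 at 72 h and 6.39 ± 0.04 at 48 h (SD, n = 3 each), Aldh1l1 averaged 6.28 ± 0.05 at 72 h and 6.20 ± 0.16 at 48 h, and S100b averaged 5.15 ± 0.11 at 72 h and 5.11 ± 0.13 at 48 h. Aqp4 lay at 4.69 at 72 h and 4.77 at 48 h, at the dim end. Slc1a2, another gene of this list, is uncertain. The probe set kept averaged 5.45 at 72 h and 5.56 at 48 h. Another averaged 6.11 at 72 h and 5.22 at 48 h, a change of 0.89 (SE 0.11, adjusted p = 2.1e-06). Apoe, Ptprz1 and Gja1 were lower in the fit to all arrays, with changes of -0.49, -0.43 and -0.28, and not called among the late arrays (adjusted p = 0.08, 0.054 and 0.07). Bcan, with -0.43, was the 1 gene lower in both, with an adjusted p of 0.14 in the 6 arrays with the replicate block, where Gja1 had 0.067. Of 15 measured oligodendrocyte and Schwann cell genes, 2 were higher and 1 lower. These are 13.3% and 6.67%, near the 9.74% and 5.96% of all genes. Without 72 h array A or B or 48 h array A 1 was higher, and without 72 h array B or 48 h array A or B 2 were lower. The 3 called genes were Pdgfra, a receptor also found on fibroblasts, with 0.92 (SE 0.17), Mbp with 0.32 (SE 0.10), which was lost among the late arrays (adjusted p = 0.19) and with the replicate block in the 6 arrays (adjusted p = 0.14), and Sox10, a neural crest and glial factor, with -0.66 (SE 0.14). Olig2, Olig1 and Nkx2-2 were not called.

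**Figure D3:**
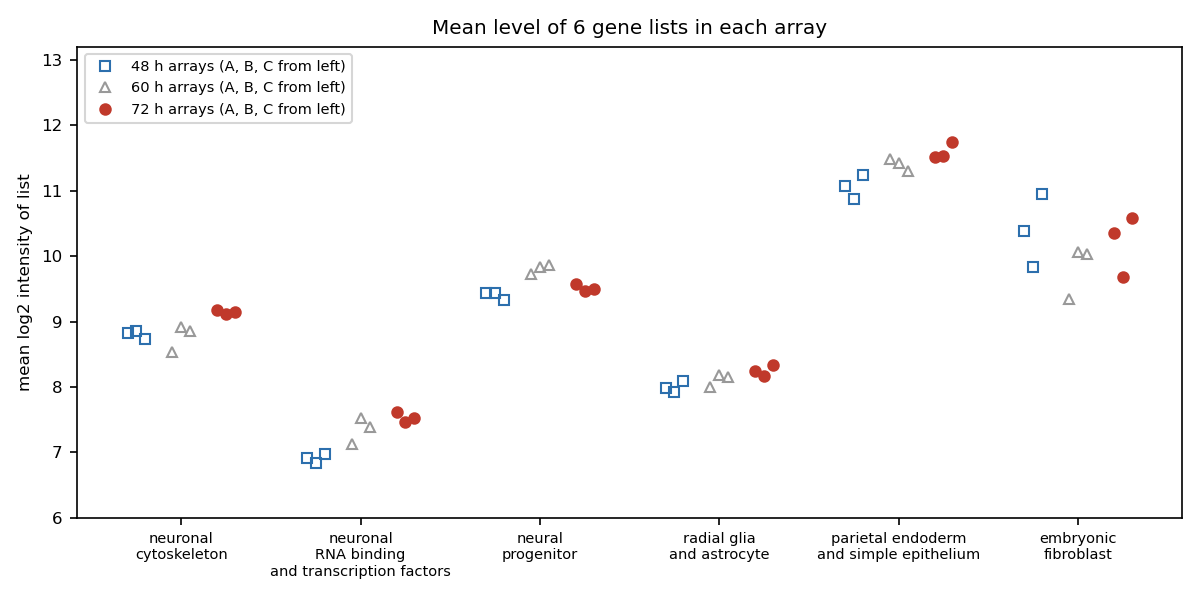
Mean log2 intensity of 6 gene lists (y axis) in each array at 48 h, 60 h and 72 h, with arrays A, B and C from left to right. The neuronal list of RNA-binding and transcription factors lies at 7.46 to 7.61 in the 72 h arrays, against 6.83 to 6.97 in the 48 h arrays, while the fibroblast list overlaps between the times.

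The 60 h arrays show when in the day the changes came. Of the 15 largest rises, 12 had reached at least 50% of their change by 60 h, with a median of 72%, and of all 157 genes called higher by at least 1 log2, 100 had. Mir124-2hg, Prdm8 and Adamts20 were at or near their 72 h level at 60 h. Nefm was late: its mean was 7.08 at 48 h, 7.63 at 60 h and 9.46 at 72 h, so that 23% of the change had come by 60 h. Fabp7 had 5.99 at 48 h, 6.10 at 60 h and 7.95 at 72 h, and Uncx had reached 37% of its change at 60 h. Of the 16 neuronal regulators called higher, 11 had reached at least 50% of their change by 60 h, against 1 of the 7 cytoskeleton genes, a difference that was not tested. Sox11 had 9.87 at 48 h, 11.15 at 60 h and 11.17 at 72 h, while Scrt1 was later, with 6.49 at 48 h, 6.86 at 60 h and 7.70 at 72 h. The arrays of 60 h were spread, with 6.76, 8.27 and 7.87 for Nefm and 6.73, 8.23 and 7.50 for Nhlh2 in arrays A, B and C, and the shares are of differences between means and carry no test.

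The falls were also mostly complete by 60 h, with 12 of the 15 past 50% and a median of 94%. Lefty2 had 11.54 at 48 h, 9.76 at 60 h and 10.28 at 72 h, so that its lowest mean came before 72 h. Sox1 was late, with 9.78 at 48 h, 9.72 at 60 h and 8.74 at 72 h. Zbtb16 had 8.58 at 48 h, 9.28 at 60 h and 7.56 at 72 h, and thus its fall came wholly after 60 h.

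**Figure D4:**
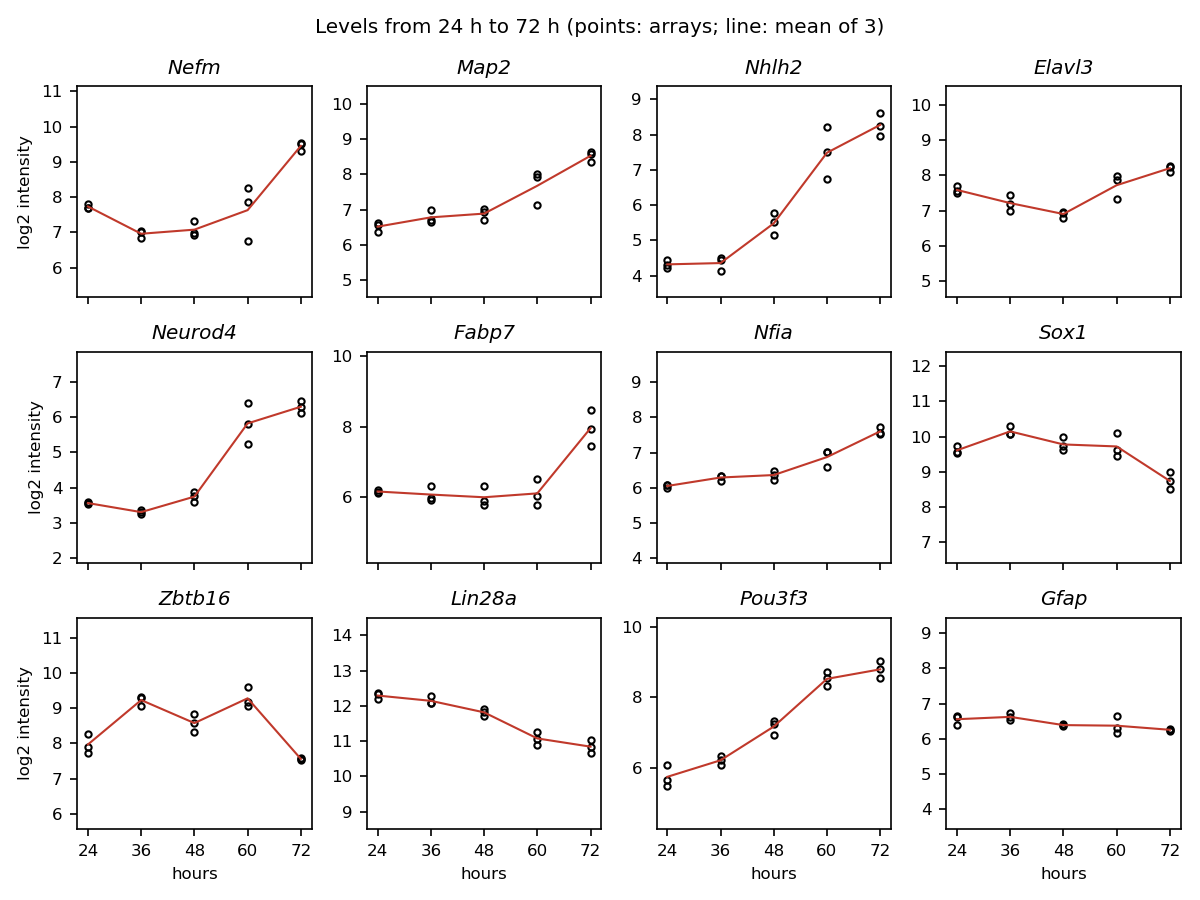
Log2 intensity (y axis) of 12 genes at 24 h (arrays D to F), 36 h, 48 h, 60 h and 72 h, with a point for each array and a line through the means. Nhlh2 and Neurod4 climb between 48 h and 60 h, Nefm and Fabp7 between 60 h and 72 h, Sox1 and Zbtb16 drop between 60 h and 72 h, and the means of Gfap stay between 6.26 and 6.62.

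Notch pathway genes moved in both directions, with 7 of 26 higher and 4 lower (5 and 2 among the late arrays). Dlk1, a noncanonical ligand, rose by 1.41 (SE 0.11), Dtx4 by 0.72 (SE 0.09), Hes6, which opposes Hes1 in neurogenesis, by 0.72 (SE 0.13), the receptor Notch1 by 0.58 (SE 0.11) and the feedback inhibitor Nrarp by 0.53 (SE 0.10). The ligands Jag1 and Jag2 changed by -0.51 (SE 0.13) and -0.28 (SE 0.05). Jag1 was not called among the late arrays (adjusted p = 0.11) and Jag2 not with the replicate block in the 6 arrays (adjusted p = 0.061). The effectors Hes1 and Hes5 were not called, with 0.00 (SE 0.08) and 0.14 (SE 0.11).

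Among genes of the dividing cell a minority was called lower, by small amounts. Of 28 measured DNA replication genes 10 were lower and 0 higher (median change -0.12), and of 29 mitosis genes 5 were lower and 0 higher (median change -0.10). Mcm2, a helicase subunit, had 11.87, 11.94 and 11.93 at 72 h, against 12.11, 12.20 and 12.14 at 48 h, a change of -0.24 (SE 0.05), and Cdc20, which activates the anaphase complex, changed by -0.19 (SE 0.05). These counts rest on the fit: among the late arrays alone 1 replication gene, Mcm2, and 0 mitosis genes were called, the counts were also 1 and 0 in the 6 arrays alone and with 12 h and 24 h each as 1 group, and without 48 h array B the counts were 1 and 1. They were 2 and 2 without 72 h array A, and 7 and 2 without 72 h array C, and the mitosis count was 3 without 48 h array A. In the 6 arrays with the replicate block neither Mcm2 (adjusted p = 0.064) nor Cdc20 (adjusted p = 0.13) was called. A list of cell cycle exit genes and the D cyclins, which instead drive the cycle, had 8 of 21 measured members higher and 0 lower (6 and 0 among the late arrays, 5 and 0 without 72 h array C, 3 and 0 with 12 h and 24 h each as 1 group), and none of the 8 was a D cyclin. Cdkn1c, the inhibitor p57, had 11.99, 11.57 and 11.62 at 72 h, against 10.36, 10.53 and 10.49 at 48 h, a change of 1.27 (SE 0.13), and Btg2, an antiproliferative gene of neurogenic divisions, rose by 0.69 (SE 0.08). At 24 h (arrays D to F) Cdkn1c had a mean of 11.66. Btg2 had means of 11.15 at 36 h, 10.40 at 48 h and 11.09 at 72 h. The letters CCAAT, on either strand, were in a promoter of 21 of 25 mitosis genes (84.0%) and of 42.0% of measured genes. TTTGAA was in a promoter of 20 of 25 (80.0%) and of 15.7%.

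Pluripotency genes were called lower in 10 of 30 members and higher in 3 (8 and 3 among the late arrays), but the central factors were not called. The shares were 33.3% lower and 10.0% higher, against 5.96% and 9.74% of all genes. The mean level of the list was 10.53, 10.80 and 10.68 in 48 h arrays A, B and C. It was 9.90, 10.00 and 10.11 at 60 h and 10.27, 10.59 and 10.58 at 72 h, and thus lowest at 60 h. Pou5f1, or Oct4, averaged 11.44 ± 0.26 at 72 h and 11.39 ± 0.26 at 48 h, and Nanog averaged 12.34 ± 0.13 at 72 h and 12.30 ± 0.20 at 48 h (SD, n = 3 each). The members that fell were led by Lefty2 and Lefty1, with Dnmt3l at -0.85 (SE 0.15), Gdf3 at -0.77 (SE 0.11), Nodal at -0.74 (SE 0.06) and Utf1 at -0.70 (SE 0.11). Nodal, the ligand that the Lefty proteins oppose, had 10.41, 10.69 and 10.68 at 72 h, against 11.37, 11.33 and 11.31 at 48 h. RNA from whole cultures cannot tell fewer cells of a type from less RNA in each cell.

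Part of the axial patterning genes of the hindbrain and spinal cord were higher. The 14 measured forebrain and midbrain genes had 0 calls in either direction (also 0 in the fits to the late arrays and to the 6 arrays). The mean of all probe sets and the 6 arrays with the replicate block each gave 1 lower. Many of these 14 were low, and 4 were dim at both times. With genes of a mean under 5.91 left out 5 of them remained, against 8 of the 9 measured hindbrain segmentation genes. Of 9 measured hindbrain segmentation genes 5 were higher and 1 lower. Nr2f2 rose by 1.21 (SE 0.13), the retinoic acid-degrading enzyme Cyp26b1 by 1.03 (SE 0.13) and Egr2, the factor Krox20, by 0.79 (SE 0.17), while Gbx2 changed by -0.53 (SE 0.11). Anterior Hox genes were higher in 5 of 10 and lower in 1, and posterior Hox genes higher in 7 of 14 and lower in 0. At 72 h some of the anterior risers, though not all, were still below their means of 24 h (arrays D to F). Central Hox genes were higher in 2 of 9 and lower in 0, with a median change of 0.01 (1 to 3 higher with 1 array left out). With 12 h and 24 h each as 1 group 1 gene of each of the 3 Hox lists was higher. Among the late arrays 3 anterior and 4 posterior Hox genes were higher. Without 72 h array A 2 anterior and 4 posterior ones were, and without 48 h array B or C 3 anterior ones were. Hoxb1 had 10.99, 11.17 and 11.01 at 72 h, against 11.92, 12.01 and 11.80 at 48 h, a change of -0.85 (SE 0.12). Hoxc10 had 10.25, 10.23 and 9.74 at 72 h, against 8.66, 9.11 and 8.60 at 48 h, a change of 1.28 (SE 0.22). Rarb, a retinoic acid receptor that retinoic acid itself induces, rose by 1.09 (SE 0.12), and Crabp2, a retinoic acid carrier, changed by -0.63 (SE 0.14). The hedgehog receptor Ptch1 and the factor Gli1, both targets of that pathway, changed by -0.79 (SE 0.09) and -0.99 (SE 0.08), and Shh by -0.52 (SE 0.15), which was lost among the late arrays (adjusted p = 0.13) and with the replicate block in the 6 arrays (adjusted p = 0.14).

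Genes of other lineages rose in the same arrays. Parietal endoderm and simple epithelium genes were higher in 9 of 14 and lower in 0, and their median change was 0.53 (7 higher among the late arrays). Lama1, a basement membrane laminin, had 11.24, 11.41 and 11.72 at 72 h, against 10.55, 10.27 and 10.63 at 48 h, a change of 0.97 (SE 0.12), and Plat, the tissue plasminogen activator, rose by 1.03 (SE 0.11). Visceral endoderm genes were higher in 7 of 23 and lower in 2, with a median change of 0.10 (5 and 2 among the late arrays, 4 and 0 with 12 h and 24 h each as 1 group). Its factors Gata6, Gata4 and Sox7 rose by 1.02, 0.97 and 0.91, and Spink1, given above, was 1 of the 2 that fell. The visceral endoderm products Afp and Ttr were not called, with 0.01 and -0.19. Mesoderm genes were higher in 8 of 26 and lower in 2 (0 to 4 lower with 1 array left out, and 0 among the late arrays), with Foxc2 at 0.93 and Meox1 at 0.89. Of 28 fibroblast genes 1 was higher, Mmp2 by 0.78 (SE 0.14), and 1 was lower, Col6a2 by -0.62 (SE 0.20), which was lost among the late arrays (adjusted p = 0.19) and without 72 h array A or B or 48 h array C. Each count is 3.57% of the list, against 9.74% of all genes higher and 5.96% lower. The list's median was -0.21, but 0.11 without 72 h array B and 0.12 without 48 h array C, and the fit to the 6 arrays with the replicate block called 4 lower. Blood and macrophage genes had 0 calls among 13. The part of these cells in the neuronal and glial results was not tested.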

How the data were processed

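The deposited values are log2 intensities of 45101 probe sets on 30 arrays, normalised by the authors before deposit. Their background correction and normalization are not given in the sources used here, and the submitters' processing notes name limma 3.8.3. Left out were 64 controls, 9160 probe sets with no gene and 932 with several. Of the rest, the brightest probe set over all arrays was kept for each of 18193 genes.

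Each gene was fitted with limma 3.58.1 (R 4.3.3) in 1 model of 10 groups (12 h and 24 h each as arrays A to C and D to F), two-sided, with Benjamini-Hochberg adjustment over all genes and no pseudocount or filter. On data simulated for 72 h against 48 h over 18193 genes the share of changed genes recovered was 79.4% for a change of 0.5 log2, 98.5% for 1 and 100% for 2, and 7 unchanged genes were called. The simulated noise was independent, with 1 SD per gene for all groups. It lacked the wider spread of the late arrays and any pairing by letter, so real recovery may be lower and false calls more frequent. Deviations from the group means correlated between arrays of the same letter at 72 h and 48 h by 0.166 (A), 0.412 (B) and 0.374 (C), so alternatives with the letter as a block were run. The main fit has no term for the letters, and its p-values are unpaired. The labels do not say what they mark.

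Named genes were the 15 largest called rises and falls whose groups did not overlap, members of 10 neural lists, and up to 6 members of each other list. The members and lists were chosen with earlier results of these data known. Promoter sequences are RefSeq's, and 14452 of the 18193 genes matched by symbol.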

Additional observations from a re-analysis of the deposited data

How the results depend on the processing

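The direction of the comparison, with more genes higher than lower, held under all alternatives tried, while the counts depended on which arrays gave the variance. Against 2856 calls (1772 higher, 1084 lower), 1083 genes (794 and 289) were called with 12 h and 24 h each as 1 group, 1353 (999 and 354) in the 6 arrays alone, 1437 (1025 and 412) in the arrays from 36 h on, and 1430 (991 and 439) in the 6 arrays with the replicate block, of which 1083, 1286, 1423 and 1294 were among the 2856 in the same direction. With the replicate block in all arrays 2905 genes were called, and no gene named here lost its call. Leaving out 1 array gave 1883 (without 72 h array A) to 2736 genes, with 1328 to 1617 higher and 555 (without 72 h array A) to 1119 lower, and 677 lower without 48 h array B.

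Medians were followed for 5 lists: neuronal cytoskeleton, neuronal RNA-binding and transcription factors, synapse, progenitors, and radial glia and astrocytes. They moved by more than the spread between arrays in these cases. The mean in place of the median gave 0.34 for neuronal cytoskeleton, 0.63 for neuronal RNA-binding and transcription factors, 0.25 for synapse and 0.24 for radial glia and astrocytes. The second of these was 0.60 without dim genes and 0.42 with the mean of all probe sets, where the glial list was 0.09, and that list was 0.14 without probe set types that can match several genes. Leaving out 1 array gave 0.14 to 0.25 for neuronal cytoskeleton, 0.31 to 0.44 for RNA-binding and transcription factors and 0.09 to 0.23 for glia. The 5 lists kept their sign. Among other lists, leaving out dim genes moved channels and transmitters from -0.00 to 0.27. It moved posterior Hox from 0.32 to 0.59 and hindbrain segmentation from 0.39 to 0.59.

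Of 141 called genes named, 95 kept their call under every alternative. The calls lost were 37 with pooled 12 h and 24 h groups (Sox1 among them, adjusted p = 0.37), 16 in the 6 arrays, 13 in the late arrays, 12 with the replicate block in the 6 arrays and 2 to 8 with 1 array left out. The mean of all probe sets turned Dcx to 0.88 and lost 6 calls, Nes among them. Without the broader probe set types Mbp turned to -0.15, and Dlk1, Bcan and Lss were lost. Of 28 genes not called (Slc1a2 not counted), 6 were called under some alternative. Array intensities give no detection call, which limits dim genes.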

Other observations

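A list of stress genes and immediate early genes, the second of which respond within minutes to handling and to growth signals, had 7 of 21 measured members higher and 0 lower (6 and 0 among the arrays from 36 h on). Egr1 had 13.69, 13.31 and 13.40 at 72 h, against 12.34, 12.20 and 12.37 at 48 h, a change of 1.16 (SE 0.14), and Fos rose by 1.09 (SE 0.15). At 24 h (arrays D to F) the mean of Egr1 was 13.50 and that of Fos was 13.21. All arrays had passed through dissociation and replating. Imprinted growth genes were higher in 7 of 14 and lower in 1 (5 and 1 among the late arrays, 4 and 1 without 72 h array A, 3 and 0 with 12 h and 24 h each as 1 group). Igf2 had 14.42, 14.33 and 14.16 at 72 h, against 13.08, 13.33 and 12.91 at 48 h, a change of 1.20 (SE 0.11), while Phlda2, which restrains placental growth, changed by -0.81 (SE 0.14). Of 15 cholesterol synthesis genes 4 were lower and 0 higher (2 lower among the late arrays or without 72 h array A, and 0 with 12 h and 24 h each as 1 group), led by Lss with -0.35 (SE 0.06) and Dhcr7 with -0.33 (SE 0.07).

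Among the rises of more than 1 log2 were genes that mouse embryonic stem cells express in a rare state resembling the embryo after its first division. The following were picked after their values had been seen and carry no support from the choice. Ubtfl1 had 6.47, 6.95 and 6.81 at 72 h, against 5.31, 5.26 and 4.75 at 48 h, a change of 1.63 (SE 0.25, adjusted p = 5e-05). Tcstv1 and Tcstv3 had changes of 1.34 (SE 0.26) and 1.29 (SE 0.25), Sp110 of 1.32 (SE 0.25), Gm20767 of 1.31 (SE 0.21), Usp17la of 1.24 (SE 0.28) and Zfp352 of 1.06 (SE 0.24). Zfp352 was not called among the late arrays (adjusted p = 0.061). All of these had their highest mean of 48 h, 60 h and 72 h at 60 h. Tcstv1 had 6.77 at 48 h, 8.57 at 60 h and 8.11 at 72 h, and Ubtfl1 had 5.11 at 48 h, 6.77 at 60 h and 6.74 at 72 h. Several belong to families of near-identical copies that share probes, so the copy behind each value is uncertain. Dppa3, a germ cell and naive state gene, changed the other way, with -0.63 (SE 0.17), and was not called among the late arrays (adjusted p = 0.089).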
